A study of Homo sapiens with 16 samples.

Results

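The promoters described here had more scaled signal in the heavy than in the light digest with micrococcal nuclease (MNase) at 60 min. The signal is a mean over the 2 kb around the transcription start site (TSS). It is scaled within each pooled library, so the comparison is of shares of reads and not of numbers of nucleosomes kept. The promoters numbered 1994, which is 22% of the 9049 promoters that met the limits on signal and shape and 9.12% of the 21857 promoters deposited. They were selected on 3 measured values. The mean signal of the light digest of untreated cells had to reach 0.5 rpm (reads per 1000000 reads). The depletion at the TSS in that table, the log2 of the mean from -100 to +40 bp over the mean of the 2 kb, had to lie between -2 and 0.3. The log2 ratio of light over heavy digest at 60 min, taken over the whole 2 kb after 0.1 rpm was added to both, had to lie below -0.5. The 60 min ratio is therefore a description of how they were chosen. The readout lies in untreated cells and after 20 and 40 min, although the light digest of untreated cells also served the first pair of limits.

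MNase cuts the linker DNA between nucleosomes and then trims and invades the nucleosome itself, so the amount of enzyme decides which nucleosomes survive. Fragments that a light digest releases and a heavy digest destroys are called MNase-sensitive, and fragments that remain under heavy digestion are called MNase-resistant. Silent chromatin is known for compact arrays from which MNase releases nucleosomes late, whereas nucleosomes beside active TSSs are often fragile. MNase also cuts A/T-rich DNA more readily than G/C-rich DNA, so base composition moves with the ratio in many data sets.

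The cells were GM12878, a B-lymphoblastoid line made by transforming B cells with Epstein-Barr virus, and all of them came from this 1 line. They were untreated or incubated with heat-killed Salmonella typhimurium (HKST), a mixed bacterial stimulus, for 20, 40 or 60 min. Each of these 4 time points was digested lightly (20 U MNase) and heavily (200 U MNase), nucleosome-sized DNA was enriched for promoters by sequence capture (mTSS-seq), and each of the 8 combinations had 2 samples. The deposited tables pool both samples of a group, so each group gives 1 value per promoter without a replicate spread, no test between groups was possible, and ranges below are over promoters. The tables rest on about 9430000 to 10500000 fragments in light and 3270000 to 7040000 in heavy digests, and 3 of them end early: all 1994 resistant promoters have values at 40 and 60 min, 1346 in untreated cells and 210 at 20 min, the last only on chromosomes 1, 10 and 11. In untreated cells the light digest alone covers all 1994. Values of both digests are thin there for chromosome X, where 16.7% of its resistant promoters are covered.

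The sequences of 3 resistant promoters are shown because they had the lowest ratios at 40 min, and a sensitive promoter is set beside them for contrast. SP1 has the highest 40 min ratio among promoters above 0.5 at 60 min. Each runs from 250 bp before to 50 bp after the deposited TSS, 5′ to 3′ on the gene's strand in GRCh37 (hg19), with every CpG dinucleotide in capitals. SNORD115-2 lies at chr15:25417532-25417831 on the plus strand, DAZL at chr3:16646957-16647256 on the minus strand, MSANTD1 at chr4:3250517-3250816 on the plus strand and SP1 at chr12:53773729-53774028 on the plus strand.
SNORD115-2: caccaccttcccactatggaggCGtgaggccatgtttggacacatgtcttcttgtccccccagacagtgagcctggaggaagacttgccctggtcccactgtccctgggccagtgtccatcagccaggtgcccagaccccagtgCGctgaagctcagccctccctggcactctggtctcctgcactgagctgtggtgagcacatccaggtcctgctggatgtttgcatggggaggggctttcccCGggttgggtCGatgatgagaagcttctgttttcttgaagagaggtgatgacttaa
DAZL: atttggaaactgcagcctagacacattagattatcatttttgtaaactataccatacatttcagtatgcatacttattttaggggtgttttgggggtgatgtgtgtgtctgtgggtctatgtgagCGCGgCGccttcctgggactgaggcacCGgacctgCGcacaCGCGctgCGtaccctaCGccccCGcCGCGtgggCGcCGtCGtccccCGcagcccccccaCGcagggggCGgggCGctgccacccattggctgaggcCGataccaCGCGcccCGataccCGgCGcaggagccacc
MSANTD1: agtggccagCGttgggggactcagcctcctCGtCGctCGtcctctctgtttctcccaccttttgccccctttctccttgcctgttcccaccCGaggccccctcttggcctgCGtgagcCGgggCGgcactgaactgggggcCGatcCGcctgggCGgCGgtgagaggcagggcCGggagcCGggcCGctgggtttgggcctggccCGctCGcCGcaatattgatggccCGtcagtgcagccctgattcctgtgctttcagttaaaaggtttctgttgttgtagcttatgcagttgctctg
SP1: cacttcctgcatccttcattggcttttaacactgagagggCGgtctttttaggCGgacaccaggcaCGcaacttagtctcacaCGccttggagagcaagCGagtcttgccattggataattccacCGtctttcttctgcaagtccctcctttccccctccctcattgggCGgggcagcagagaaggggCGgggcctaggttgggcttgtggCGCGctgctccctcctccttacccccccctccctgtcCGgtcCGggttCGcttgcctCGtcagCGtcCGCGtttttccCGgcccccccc
SNORD115-2 carried 4 CpGs in these 300 bases although 58.3% of them are G or C, whereas DAZL carried 25 and MSANTD1 19. The median of the class was 9 (quartiles 5 and 17), so these extremes lie outside its middle range. SP1 carried 18 CpGs at a G+C content of 61.3%, close to that of DAZL and MSANTD1 at 61% and 64%. These 4 promoters were picked as extremes and do not show how the classes differ in G+C content. Over the classes the median G+C content of the 300 bases was 60.7% in resistant and 52.3% in sensitive promoters. SNORD115-2 is one of a tandem array of near-identical C/D box small nucleolar RNA genes in an imprinted region, and its values rest on the reads that aligned uniquely. DAZL encodes an RNA-binding protein of germ cells. SP1 encodes a ubiquitous zinc finger activator that binds GC boxes.

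In untreated cells, before any stimulus, the resistant promoters already had more heavy-digest than light-digest signal. Their median log2 light over heavy was -0.62 (quartiles -0.80 and -0.44, n = 1346 promoters), against 0.05 (-0.32 and 0.38, n = 6354) over all promoters that met the limits. The ratio lay below -0.5 at 892 of the 1346 resistant promoters, 66.3%, where 15.9% of all eligible promoters did. It lay below 0 at 1339 of the 1346 resistant promoters, against 46.2% of all eligible promoters. Promoters called sensitive by the mirrored limit (above 0.5 at 60 min, 1666 in all) had a median of 0.56 in untreated cells, and none of the 1273 with values was below -0.5.

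The same held after HKST. At 20 min the median of the resistant promoters was -0.62 (quartiles -0.76 and -0.49, n = 210) and 71.9% lay below -0.5, against 16.8% of the 1163 eligible promoters of that smaller set. At 40 min the median was -0.57 (quartiles -0.74 and -0.41, n = 1994). There 1220 promoters, 61.2%, lay below -0.5, against 15.4% of all 9049. All 210 were below 0 at 20 min and 1986 of 1994 at 40 min, against 51.4% and 50.9% of all eligible promoters. Of the resistant promoters with values in untreated cells, 50.3% were below -0.5 both there and at 40 min, against 11.3% of all eligible promoters. The 60 min values used by the rule had a median of -0.73 and reached down to -1.62.

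**Figure D1:**
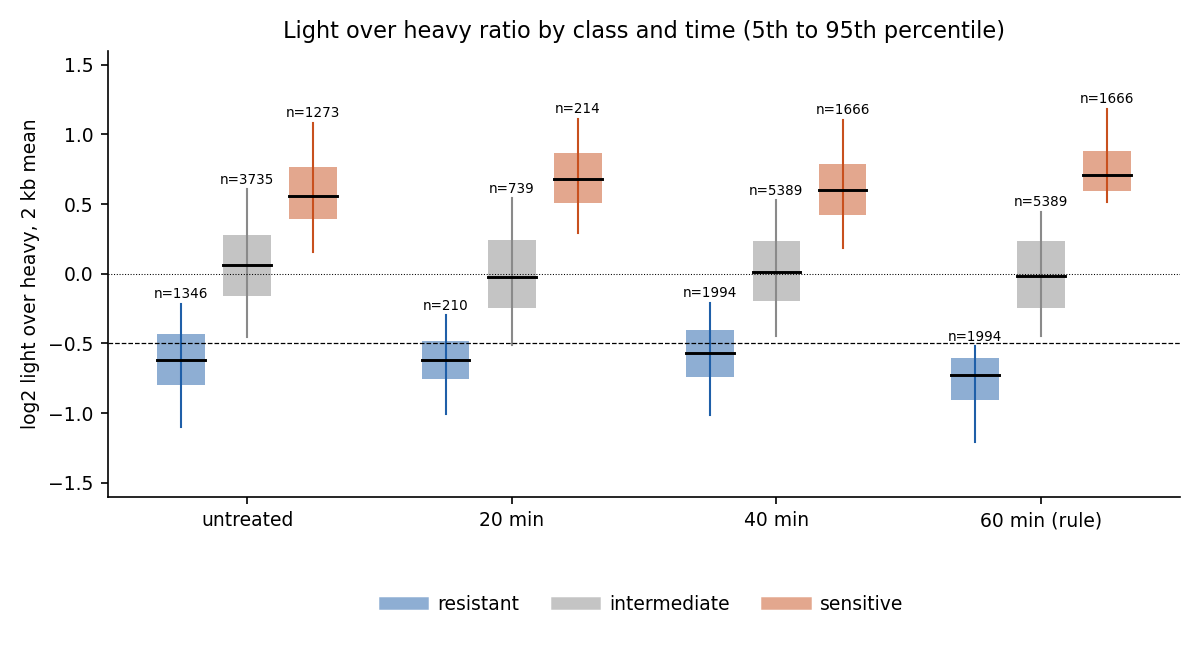
Log2 light over heavy digest over the 2 kb (vertical axis) for resistant, intermediate and sensitive promoters at each time point. Black lines are medians, boxes quartiles and thin lines the 5th to 95th percentile over promoters, with n above; classes were chosen at 60 min, and the dashed line is the limit of -0.5. Medians of the resistant class sit at -0.62, -0.62 and -0.57 at the time points not used to choose it.

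An exact Clopper-Pearson 95% interval of the recovered fragments, which covers counting error only and treats PCR copies as independent, lay wholly below 0 at 1280 of 1346 resistant promoters in untreated cells, where it did so at 30.9% of eligible promoters. At 20 min it did so at 207 of 210 against 35.7%. At 40 min it did so at 1838 of 1994 against 31.3%, and no resistant promoter had an interval above 0. A single promoter of the class rested on a median of 358 light and 193.7 heavy fragments at 40 min. Over promoters the untreated and 40 min ratios had a Pearson r of 0.66 within the class (n = 1346) and 0.87 over all eligible promoters (n = 6354). Both sets of points share DNA sequence and capture, and the libraries at the time points were separate.

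The promoters just inside and just outside the limit show that it cuts a continuous range. Just inside at 60 min were MAEL, ZNF295-AS1 and SPACA4, each at -0.50. Their 40 min ratios were -0.39, -0.25 and -0.78. Just outside were BCAT1, LCE2B and NGFRAP1, also at -0.50 after rounding, with 40 min ratios of -0.41, -0.39 and 0.02. Between -0.55 and -0.5 lay 245 promoters with a 40 min median of -0.39, and between -0.5 and -0.45 lay 269 with -0.36.

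The heavy digest separated the classes further than the light digest did. In untreated cells the median light level of the resistant promoters was 1.27 rpm (n = 1994), against 1.26 rpm over all eligible promoters (n = 9049). Their median heavy level was 2.02 rpm (n = 1346) against 1.23 rpm (n = 6354), so the heavy medians cover fewer promoters. At 20 min, where the heavy table covers more promoters than the light one, the heavy medians were 1.89 rpm (n = 540) and 1.25 rpm (n = 2707). The 20 min light medians were 1.2 rpm (n = 210) and 1.3 rpm (n = 1163), lower in the resistant class. At 40 min the heavy medians were 1.97 and 1.27 rpm. The light medians at 40 min were 1.28 and 1.25 rpm. Sensitive promoters had a heavy median of 0.672 rpm and a light median of 1.06 rpm at 40 min. At 40 min the light quartiles of the resistant class, 0.983 and 1.6 rpm, overlapped those of the sensitive class, 0.801 and 1.35 rpm, whereas the lower quartile of heavy signal in the resistant class, 1.57 rpm, was above the upper quartile of the sensitive class, 0.880 rpm. Since light signal entered the limits, its likeness between the classes is in part set by the choice.

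The depletion at the TSS in the light digest of untreated cells was one of the values that chose the promoters, so its depth there is a description. Its median was -0.67 in the resistant class and -0.75 over all eligible promoters. The average light profile of the resistant promoters fell to 0.820 rpm at -70 bp and rose to 1.13 rpm at 160 bp, where the +1 nucleosome lies, a ratio of 1.37. Over all eligible promoters it fell to 0.753 rpm and rose to 1.33 rpm, a ratio of 1.76. In sensitive promoters it fell to 0.516 rpm at -40 bp and rose to 1.42 rpm at 140 bp, a ratio of 2.75. In the heavy digest the resistant profile had its low of 1.44 rpm at -80 bp and its +1 peak of 2.02 rpm at 180 bp, again a ratio of 1.4, while that ratio was 1.78 over all eligible and 3.5 in sensitive promoters. The resistant heavy profile, a mean over 1346 promoters where the light one had 1994, stayed above the resistant light profile on both sides of the TSS. It was highest near the ends of the region, with 3.04 rpm at -830 bp and 3.34 rpm at 820 bp, and the light profile peaked near the same distances with 2.15 and 2.04 rpm. These end peaks were not particular to the class: the heavy profile of all eligible promoters had 1.89 rpm at -830 bp and 2.12 rpm at 820 bp. At 40 min the resistant heavy profile had its low of 1.42 rpm at -80 bp and its +1 peak of 2.02 rpm at 160 bp, so the shape was little different from that of untreated cells.

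**Figure D2:**
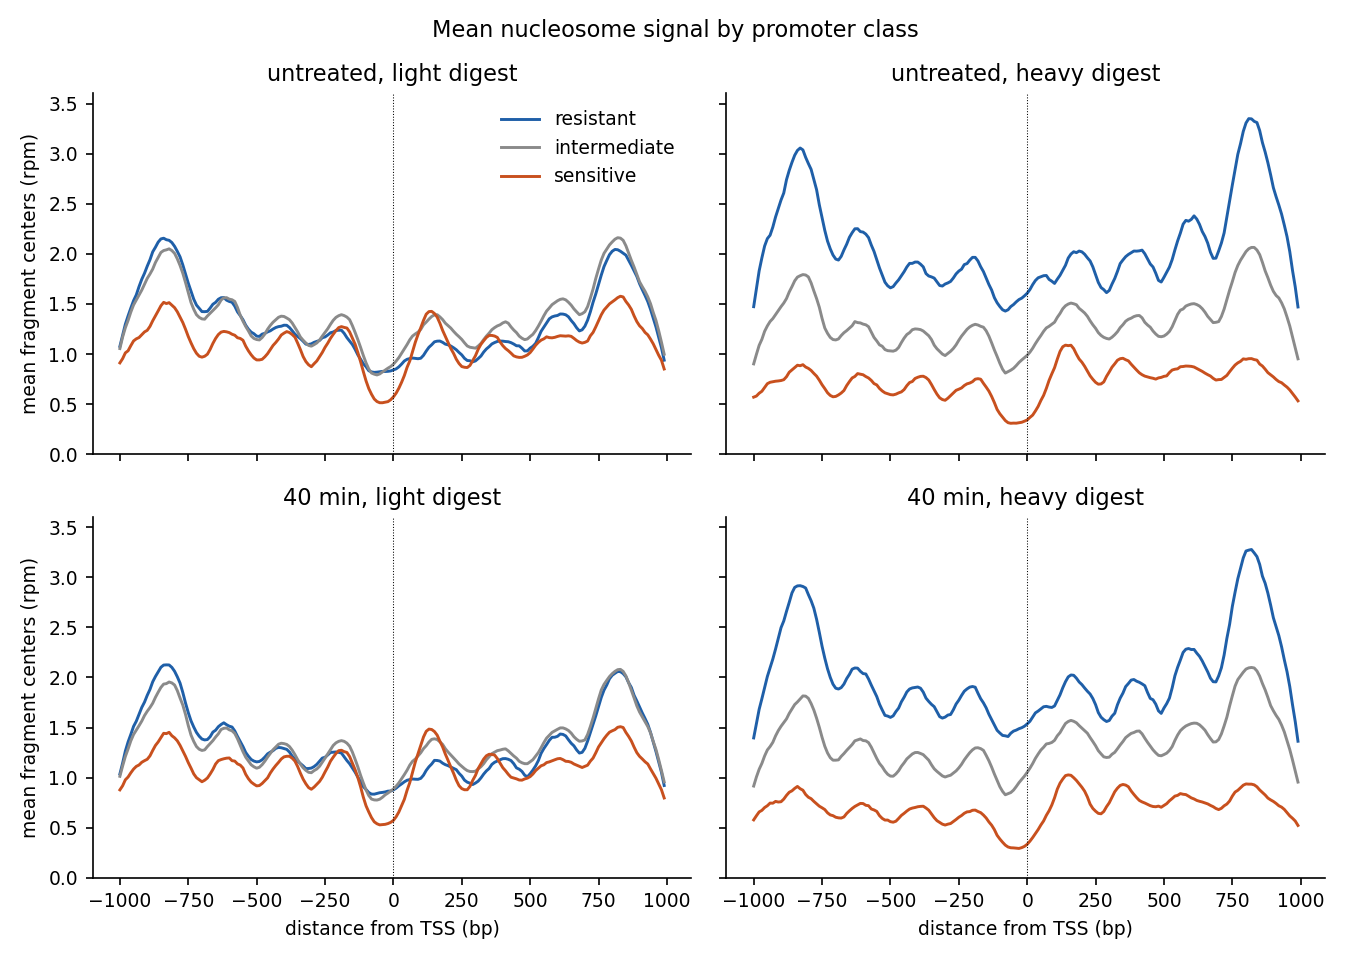
Mean fragment centers in rpm (vertical axis) against distance from the TSS in bp, for light and heavy digests of untreated cells and of cells after 40 min of HKST. Lines are means over the promoters of each class. The resistant class rises above the others along the whole heavy profile, 1.44 rpm at its lowest point near the TSS in untreated cells against 0.310 rpm in the sensitive class there. In the light profile the resistant and sensitive classes cross: at their lowest points near the TSS they are at 0.820 and 0.516 rpm, and at the +1 nucleosome at 1.13 and 1.42 rpm.

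Resistance was strongest over the TSS and downstream of it and weakest upstream. In 5 windows of 400 bp, from -1000 bp on, the median log2 ratios of the resistant promoters in untreated cells were -0.33, -0.47, -0.81, -0.81 and -0.70. At 40 min they were -0.36, -0.47, -0.70, -0.68 and -0.64. The 20 min medians followed the same order, with -0.42 in the first window and -0.87 in the window over the TSS. Over all eligible promoters the 40 min medians were 0.21, 0.14, -0.07, -0.14 and 0.04, so upstream windows were the more sensitive ones there too. The window from -1000 to -600 bp was below 0 at 72.1% of the resistant promoters at 40 min and the window over the TSS at 91.1%. Over all eligible promoters these shares were 38.2% and 53.2%.

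The name "resistant across the 2 kb" holds for the mean and not for each part of every promoter. All 5 windows were below 0 at 818 of the 1908 resistant promoters with values in each, 42.9%, against 11.3% of all eligible promoters at 40 min. A further 730 had 4 of 5 below 0, and 7 had 1. Of the 8678 eligible promoters 1472 had 4 and 1693 had 1. In untreated cells 44.4% of the resistant promoters had 5 of 5 below 0 and at 20 min 49.3%, against 10.9% and 12.1% of all eligible promoters. Leaving out the bins from -200 to +190 bp gave a 40 min median of -0.54, close to the -0.57 of the whole 2 kb.

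**Figure D3:**
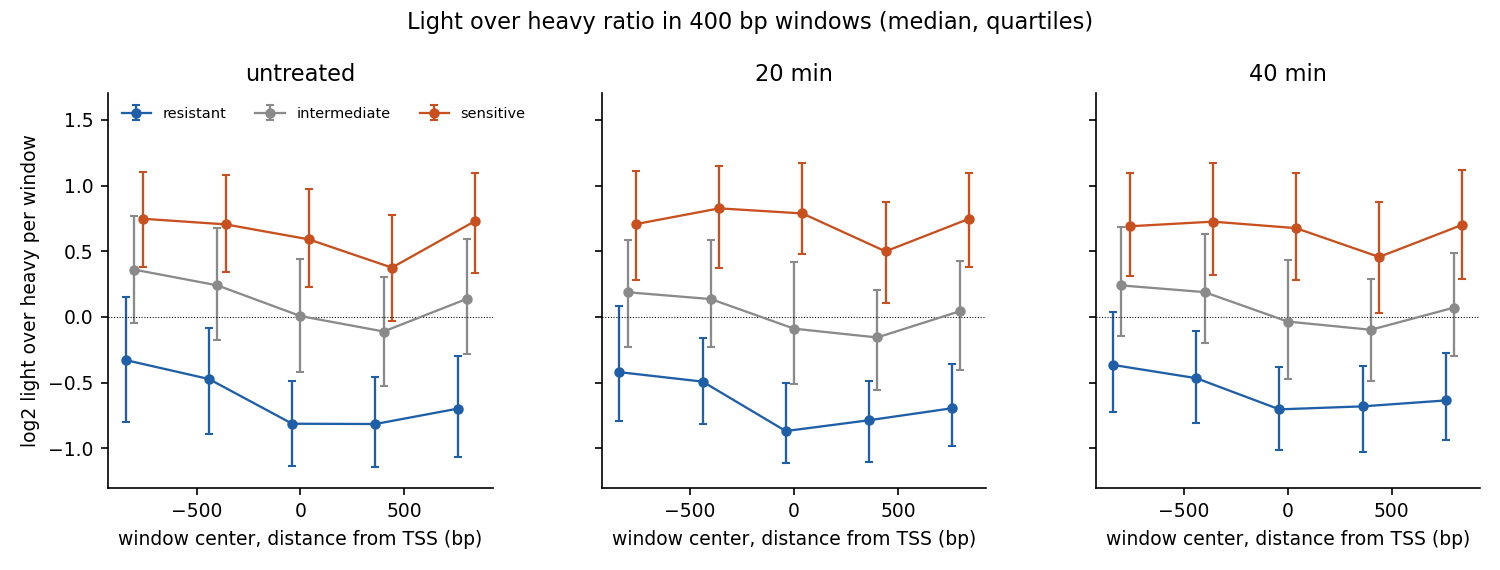
Log2 light over heavy in 400 bp windows (vertical axis) against the distance of the window's center from the TSS in bp, for untreated cells, 20 min and 40 min. Points are medians and bars quartiles over the promoters of each class, set slightly apart. In untreated cells the resistant class is at -0.81 in the window over the TSS and in the next one downstream, and closest to 0 in the window farthest upstream, with -0.33.

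After HKST the ratio of these promoters moved little on average. From untreated cells to 40 min the median change was 0.05 (quartiles -0.08 and 0.19, n = 1346), against -0.01 over all eligible promoters, and 809 promoters moved up and 537 down. The light level moved by a median of 0.01 and the heavy level by -0.04 on the log2 scale. From untreated cells to 20 min the median change was 0.00 over 210 promoters, and as many moved up as down. A change toward a higher ratio larger than counting error allowed (exact conditional 95% interval above 0) occurred at 9.21% of the resistant promoters by 40 min, against 5.29% of all eligible ones. A change toward a lower ratio occurred at 50 of 1346, 3.71%, against 7.07%. At 20 min higher ratios occurred at 19 of 210, 9.05%, against 8.17%, and lower ratios at 21 of 210, 10.0%, against 13.9%. Depth and library differences between tables move with time here and their part in these changes was not tested.

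A few promoters among the 5 largest such changes in each direction are given here, chosen after their values were seen. At 40 min CYP1B1, a cytochrome P450 that oxidizes estrogens and aromatic hydrocarbons, went from -0.95 to -0.20, a change of 0.74 (95% interval 0.42 to 1.18). Its light signal went from 0.869 to 1.20 rpm and its heavy signal from 1.77 to 1.39 rpm. HOXC13, a homeobox factor of hair follicles, went from -0.38 to -1.01, a change of -0.62 (-1.19 to -0.25), with light signal from 0.726 to 0.489 rpm and heavy signal from 0.976 to 1.08 rpm. At 20 min the olfactory receptor gene OR5L1 went from -0.15 to -0.87, a change of -0.71 (-1.09 to -0.43). The rest of the 5 largest falls at 20 min were at FOLH1 and CLDN19, with changes of -0.52 each, and OR5L2 and OR2T4, with -0.48 each. MYO3A, a myosin of inner ear hair cells, rose by 0.62.

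The 10 lowest ratios at 40 min were those of SNORD115-2, DAZL, MSANTD1, POTEC, TMEM89, TUBA3C, GPR158, TMEM204, MIR328 and POU4F3, from -1.38 to -1.26. SNORD115-2 had 0.838 rpm in the light and 2.18 rpm in the heavy digest of untreated cells, 0.854 and 2.38 rpm at 40 min, and 0.732 and 1.91 rpm at 60 min. Its 40 min ratio was -1.38, with a counting interval of the ratio without added signal from -1.74 to -1.23. The heavy value was more than double the light value at each of these time points. Of these, the 60 min ratio put SNORD115-2 in the class and the 40 min ratio had it named.

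DAZL, at chr3:16646007-16648006, had 0.541 rpm light and 1.15 rpm heavy in untreated cells, 0.398 and 1.17 rpm at 40 min, and 0.470 and 0.957 rpm at 60 min. Its ratios were -0.96, -1.35 (interval -2.06 to -1.08) and -0.89, and 25.6% of its 2 kb is exonic. GPR158, an orphan receptor of brain, lies at chr10:25463290-25465289 and has all 8 values. Its light signal was 0.551, 0.607, 0.515 and 0.469 rpm from untreated cells to 60 min, and its heavy signal was 1.09, 1.53, 1.42 and 1.20 rpm. Its ratio was -0.87 in untreated cells and -1.21, -1.31 and -1.19 at 20, 40 and 60 min. Its light and heavy values did not overlap over the time points, but the 60 min ratio put it in the class. Its 20 and 40 min ratios had it named.

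POU4F3, a transcription factor of inner ear hair cells, had ratios of -1.01 in untreated cells and -1.26 at 40 min. MIR328 encodes a microRNA, and 54.7% of its 2 kb is coding sequence of a host gene. POTEC and TUBA3C, a testis tubulin, have near-identical paralogs, so reads that align to several copies are missing from their values. The 2 kb of the 10 promoters had G+C contents from 57% to 65.4%.

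At the other end the 5 highest ratios at 40 min belonged to HCG4, FLJ20518, VLDLR, LYL1 and P2RX1, from 0.22 down to 0.03. HCG4, a pseudogene in the MHC, had 1.31 rpm light and 1.50 rpm heavy in untreated cells, 1.38 and 1.17 rpm at 40 min, and 1.04 and 1.53 rpm at 60 min. Its 40 min interval, -0.06 to 0.54, contained 0. LYL1, a helix-loop-helix factor of blood cells, had a ratio of -0.19 in untreated cells and 0.05 at 40 min, where its interval was -0.26 to 0.36. P2RX1, an ATP-gated channel of platelets and leukocytes, had -0.56 in untreated cells and 0.03 at 40 min. These promoters were resistant at 60 min and not at 40 min, and the 60 min value is the one that selected them.

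Among the lowest ratios at 20 min were those of PRSS38, GPR158, PLCH2 and PKP3. PRSS38, a serine protease gene, had 0.703, 0.719, 0.908 and 0.662 rpm in the light and 1.97, 1.95, 1.85 and 1.9 rpm in the heavy digest from untreated cells to 60 min. Its ratio was -1.37 in untreated cells, after which it was -1.32 at 20 min and -0.95 at 40 min. PKP3, a plakophilin of epithelial desmosomes, had ratios of -1.01, -1.18 and -0.92. The highest at 20 min were LCK, CASZ1 and RHBDL2, at -0.09, -0.17 and -0.21. LCK, the proximal kinase of the T cell receptor, had high signal, with 3.17, 2.94, 3.30 and 2.59 rpm light and 4.31, 3.13, 4.32 and 3.78 rpm heavy from untreated cells to 60 min. Its 20 min heavy value was the lowest of the 4 and its 20 min interval, -0.27 to 0.09, contained 0.

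The resistant promoters were rich in G+C with a low ratio of observed to expected CpG. Their 2 kb had a median G+C content of 57.9% (quartiles 54.1% and 61.6%), against 51% in intermediate and 48.5% in sensitive promoters. The ratio of observed to expected CpG was 0.35 in the median, against 0.41 in intermediate and 0.62 in sensitive promoters. The median number of CpGs in the 2 kb was 58 in resistant, 58 in all eligible, 50 in intermediate and 73 in sensitive promoters. In the 300 bases around the TSS the medians were 9 in resistant, 8 in intermediate and 14 in sensitive promoters. Over GC deciles of the eligible promoters the share of resistant ones rose at each step, from 0.673% in the lowest to 48.2% in the highest. The share below -0.5 at 40 min, a readout the rule did not use, rose from 0.112% to 41.8%.

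CpG frequency split the GC-rich promoters. Among promoters over 55.9% G+C, 79.5% of the 390 with observed over expected CpG under 0.27 were resistant. From 0.27 to 0.61 it was 59.6% of 1026 and above 0.61 it was 21.6% of 1603. Their median ratios at 40 min were -0.55, -0.46 and -0.04. Among promoters under 48.4% G+C the shares were 2.88%, 5.66% and 2.86%. Of these bins the class was most frequent in the one with high G+C and the lowest ratio of observed to expected CpG.

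Base composition moved with the ratio in all promoters, and the difference of the class from the others was present within deciles. The class was cut on the 60 min ratio, which had a Pearson r of 0.90 with the 40 min ratio over all eligible promoters. A gap at 40 min within deciles is therefore largely set by the choice. Whether G+C content accounts for the class was not tested. At 40 min the resistant promoters had medians from -0.41 to -0.70 in the deciles 2 to 10, where the other eligible promoters had medians from 0.18 to -0.07. In the lower 5 deciles 38.6% of 316 resistant promoters were below -0.5 at 40 min, against 3.92% of all promoters there. In the upper 5 it was 65.4% of 1678 against 26.8%. In untreated cells the lower 5 deciles gave a median of -0.35 for the resistant and 0.33 for the other promoters, and the upper 5 gave -0.65 and 0.04. Within the class the 40 min ratio and G+C content had a Pearson r of -0.34 over 1994 promoters, which share libraries and capture.

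**Figure D4:**
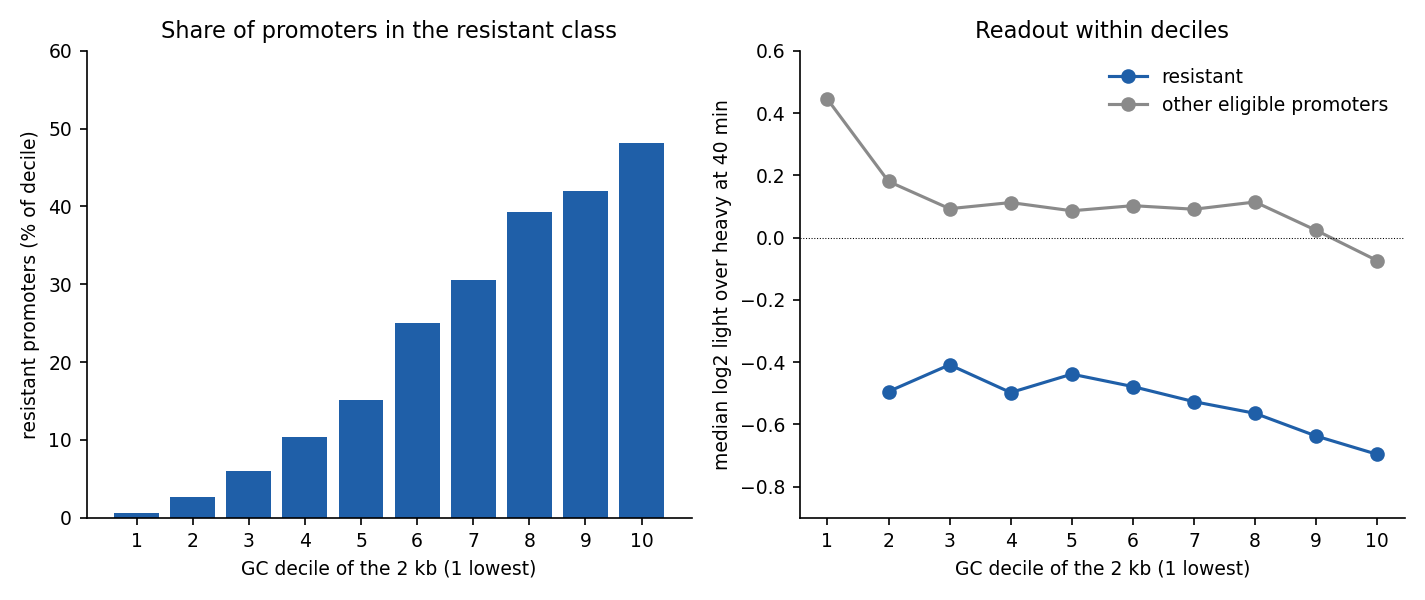
Left, resistant promoters as a percentage of the eligible promoters in each decile of G+C content of the 2 kb, from 0.673% to 48.2%. Right, median log2 light over heavy at 40 min for resistant and other eligible promoters in each decile (under 20 resistant promoters, none drawn); the lines stay apart in deciles 2 to 10.

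Short sequence motifs were counted in the same 300 bp windows, 250 bp before to 50 bp after the TSS. The ETS site CCGGAAGT, on both strands, was present in 1.1% of the resistant promoters, 7.26% of sensitive, 3.48% of eligible and 4.83% of all 21857 deposited promoters. CCAAT, on both strands, was present in 30.1%, 42.7%, 37.4% and 35.4% in the same order. TATAAA, on the sense strand, was present in 6.32%, 12.2%, 9.06% and 7.30%. GGGCGG, on both strands, was present in 40.4%, 37.4%, 36.8% and 52.8%, so its share in the resistant class lay above that of eligible and below that of deposited promoters. A match describes letters and not a bound factor. None of these motifs contains another.

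Resistant promoters lay near each other. The nearest other eligible promoter whose 2 kb did not overlap, up to 50 kb away, was itself resistant for 443 of 1011 resistant promoters, 43.8%, against 23.6% for intermediate and 8.06% for sensitive ones. Its median ratio at 40 min was -0.32 beside a resistant, -0.06 beside an intermediate and 0.28 beside a sensitive promoter. Counted separately, the 2 kb of 6.72% of all 1994 resistant promoters overlapped that of another resistant one. The same overlap with a resistant promoter held for 0.445% of intermediate and for no sensitive promoters. Overlapping regions share fragments, so their ratios are not independent. By chromosome the share of eligible promoters that were resistant ran from 13.7% on chromosome 6 to 36.3% on chromosome 22, with 32% on chromosome 19 and 30.5% on chromosome X. The median G+C content of eligible promoters was 56.2% on chromosome 22, 55.7% on chromosome 19 and 49.9% on chromosome X, so chromosome X stood high at a low G+C content.

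The kinds of genes were much as in the whole set. Protein-coding genes made up 75.4% of the resistant promoters, and 21.6% of eligible protein-coding promoters were resistant. Entries of microRNAs were resistant in 26.2%, of long noncoding RNAs in 21.6% and of pseudogenes in 22.8%. The 2 kb was exonic over a median of 29.8% in resistant and 25.6% in sensitive promoters, and GENCODE placed a transcript start on the same strand within 50 bp of 77.9% and 77.7% of their TSSs.

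The share of resistant promoters differed widely between gene lists. Of 30 lists with 5 or more eligible promoters, written with earlier results of these data known, each share is set against 22% of all eligible promoters and against the share in the same GC deciles. No test was made of a list. Cancer-testis antigens, proteins normally made only in germ cells, had 15 of 22 promoters resistant, 68.2%, where their GC deciles held 15.9%. Their 40 min median was -0.48 and 45.5% were below -0.5. In untreated cells only 6 of the 22 had values, with a median of -0.05. Keratins, the intermediate filaments of epithelia, had 18 of 33 resistant, 54.5%, against 21.5% in their deciles. Keratin-associated proteins of hair had 10 of 20 resistant against 15.8% in their deciles. Late cornified envelope and SPRR proteins of the epidermis had 5 of 18 against 7.49%. Below -0.5 at 40 min were 30.3%, 30% and 16.7% of these last 3 lists, against 15.4% of all eligible promoters.

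Among these, MAGEA12 on chromosome X, a cancer-testis antigen, had 1.99, 2.09 and 1.7 rpm light in untreated cells and after 40 and 60 min, and 3.54 and 2.94 rpm heavy at 40 and 60 min. KRT16, a keratin of stressed epidermis, had 2.47, 2.63 and 2.19 rpm light and 4.37, 4.54 and 4.00 rpm heavy, and ratios of -0.80 in untreated cells and -0.77 at 40 min. KRT16 has close pseudogene copies, so multiply aligned reads are missing. LCE3D, of the epidermal envelope, had ratios of -0.59, -0.78 and -0.66 in untreated cells and after 20 and 40 min. Heavy signal was above light signal in each pair of these values.

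Homeobox genes, the positional transcription factors of the embryo, had 35 of 65 promoters resistant, 53.8%, with 36.3% in their GC deciles and a 40 min median of -0.42. PAX8, of thyroid and kidney, had a 40 min ratio of -0.72, HOXB1 of -0.25 and DLX5 of -0.57. Neurotransmitter receptors had 20 of 49 resistant, 40.8% against 23.0%. Ion channels had 28 of 75, 37.3% against 27.6%. KCNJ12, an inward rectifier potassium channel, had 2.15 rpm light and 3.89 rpm heavy at 40 min and a ratio of -0.83. Collagens had 9 of 21, 42.9% against 28.2%, among them COL14A1 with ratios of -0.66 in untreated cells and -0.62 at 40 min. Solute carriers, a mixed family of membrane transporters, had 27.2% against 23.2%. Below -0.5 at 40 min were 41.5% of homeobox genes, 32.7% of neurotransmitter receptors, 26.7% of ion channels, 28.6% of collagens and 17.9% of solute carriers. The share of all eligible promoters was 15.4%.

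Olfactory receptors had 38 of 263 resistant, 14.4%, which is below the share of all promoters but above the 3.67% of their A/T-rich deciles, and their 40 min median was -0.03. Taste receptors had 2 of 20, 10% against 7.43% in their GC deciles. Beta-defensins had 1 of 13, 7.69% against 6.77%, and clustered protocadherins 2 of 10, 20% against 2.79%. In the 40 min readout none of the 13 and none of the 10 was below -0.5. Zinc finger genes of the ZNF family had 40 of 242, 16.5% against 21.9%. ZNF718 had the highest signal named here, 5.04 rpm light and 10.8 rpm heavy at 40 min, and a ratio of -1.08. Entries of microRNAs had 26% against 16.1% and of small nucleolar RNAs 24.9% against 13.9%. Below -0.5 at 40 min were 16.9% and 21.2% of them, against 15.4% of all eligible promoters. The SNORD116 array in the imprinted region of chromosome 15 supplied the 3 small nucleolar RNA promoters with most signal: SNORD116-5 had ratios of -0.84 in untreated cells and -0.86 at 40 min, SNORD116-15 of -0.20 and -0.31, and SNORD116-1 of -0.69 and -0.96.

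Housekeeping lists held few resistant promoters. None of 24 eligible mitochondrial ribosomal protein promoters, 18 proteasome subunit promoters and 19 RNA polymerase II initiation factor promoters was resistant, where their GC deciles held 14.2%, 18.2% and 21.1%. These lists had 76, 45 and 68 deposited promoters, so most of each list fell outside the limits. Their 40 min medians were 0.53, 0.35 and 0.41. Respiratory chain subunits had 1 of 32, 3.12% against 21.3%, which was NDUFB11 on chromosome X, with ratios of -0.61 in untreated cells and -0.44 at 40 min. Cytosolic ribosomal proteins had 2 of 28, 7.14% against 25.1%, which were RPL3L and RPL10L. Both are tissue-restricted, and the tissue range of the rest of the list was not examined. RPL3L, of striated muscle, had ratios of -1.19 and -1.11 in untreated cells and at 40 min, and RPL10L, of testis, had -0.26 and -0.66. Histone genes had 4 of 57, 7.02% against 14.9%, among them HIST3H3, a testis histone, with -0.62 and -0.68, while 32 of the 57 were sensitive.

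Lists of the B cell and of the response to bacteria held few resistant promoters, some of them close to the share of their GC deciles. None of 24 B cell promoters and none of 24 interferon-stimulated promoters was resistant, where their GC deciles held 18.9% and 19%, and their 40 min medians were 0.21 and 0.40. Both medians were above 0 in untreated cells as well, 0.31 and 0.46. Of 15 promoters of the NF-kB pathway 1 was resistant, 6.67% against 26.3% in their deciles. It was TNFAIP2, with -0.82 in untreated cells and -0.57 at 40 min. Of 10 promoters of Toll-like receptor signaling 1 was resistant, 10% against 16.4%. It was IKBKG on chromosome X, with -0.72 at 40 min. IKBKG encodes the regulatory subunit of the IkB kinase and has a near-identical pseudogene, so its values rest on uniquely aligned reads.

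Of 13 immediate early promoters 1 was resistant, EGR1, a zinc finger factor that many signals induce within minutes, although the GC deciles of the list held 42.9%. EGR1 had 0.525, 0.576 and 0.467 rpm light and 0.823, 0.857 and 0.732 rpm heavy in untreated cells and after 40 and 60 min. Its ratios were -0.56, -0.50 and -0.55, without a value at 20 min. Counting intervals were wide, -0.99 to -0.30 in untreated cells and -0.96 to -0.19 at 40 min. The 60 min ratio is the one that selected it, so a movement after HKST cannot be judged from these values. Fc receptors and SLAM family had 1 of 16, 6.25% against 7.42%. It was FCGR3A, the Fc receptor of natural killer cells, with ratios of -0.73, -0.55 and -0.21 in untreated cells and after 20 and 40 min. FCGR3A has a near-identical paralog.

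Genes of T cells and natural killer cells, lymphocytes of other lineages than the B cell, had 6 of 15 promoters resistant, 40.0% against 21.2% in their GC deciles. In the 40 min readout 3 of the 15 were below -0.5, 20%, close to the 15.4% of all eligible promoters. The median of the list was -0.15 at 40 min and -0.10 in untreated cells. LCK, described above, CD8A and CD5 had the most signal, with 40 min ratios of -0.38, -0.26 and -0.56. Interleukins and chemokines had 8 of 52, 15.4% against 13.4%. CXCL6, a neutrophil chemokine, had ratios of -0.53 in untreated cells and -0.83 at 40 min, and CCL17, a T cell chemokine, had -0.20 and -0.31. The remaining list, type I interferons, had fewer than 5 eligible promoters, none of them resistant.

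**Figure D5:**
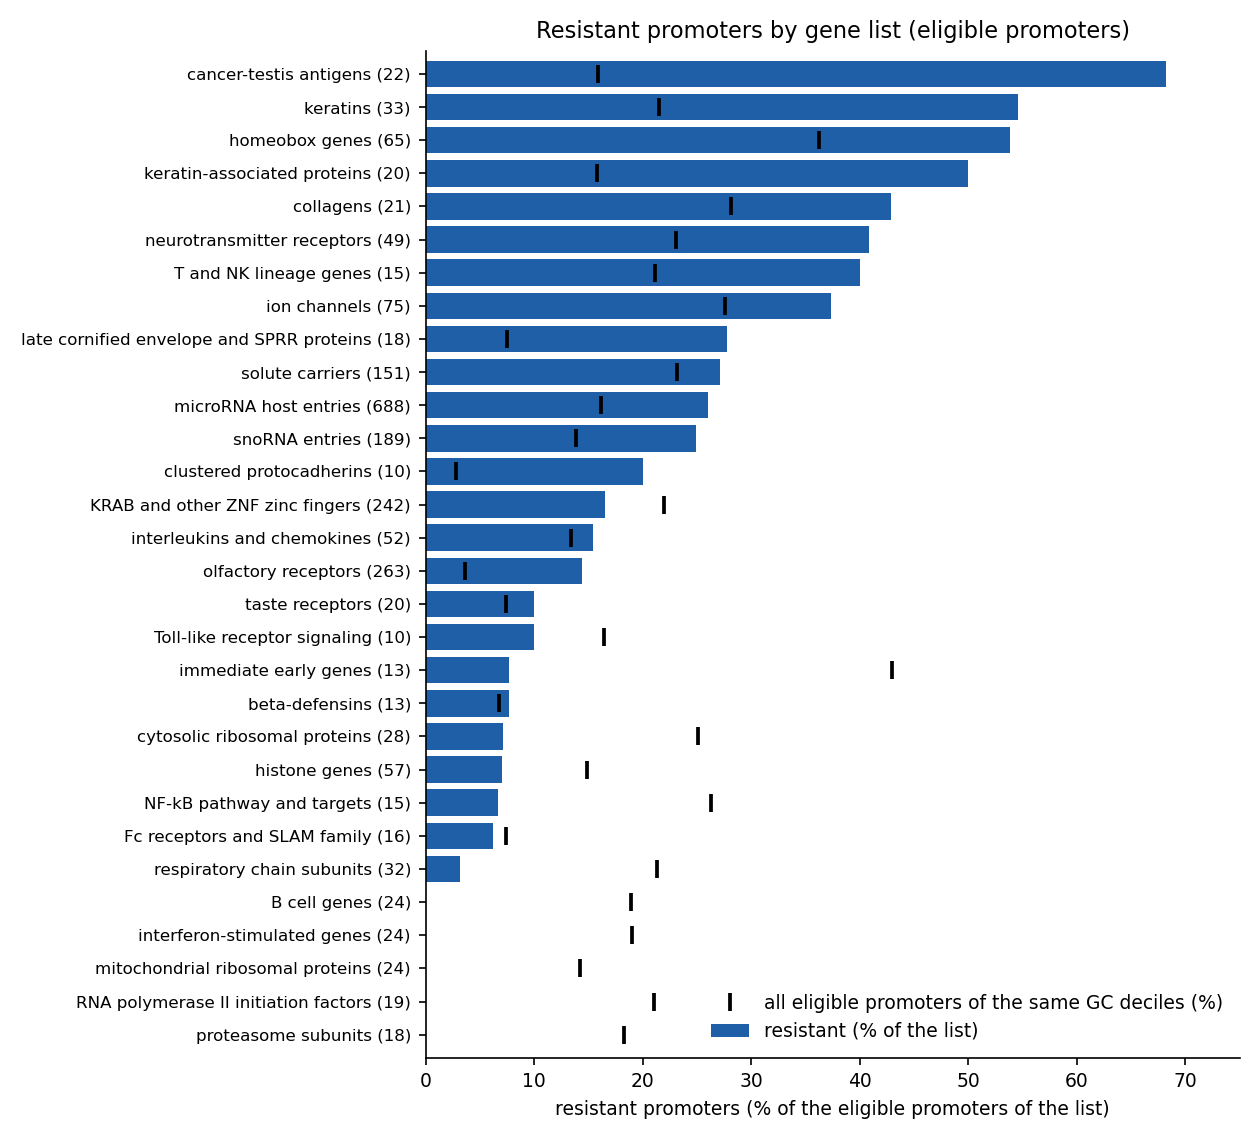
Resistant promoters as a percentage of the eligible promoters of each gene list (bars; number of eligible promoters in brackets) and the percentage resistant among all eligible promoters of the same GC deciles (black marks). Cancer-testis antigens reach 68.2% and 5 lists of B cell, interferon-stimulated and housekeeping genes stand at 0.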

How the data were processed

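Nucleosome fragments of GM12878 cells were measured by mTSS-seq in 16 samples, and 8 pooled tables were used. The authors aligned reads to hg19, kept unique alignments, and deposited centers of fragments from 140 to 200 bp, counted in sliding windows of 60 bp moved by 10 bp, and scaled to rpm. Bowtie2 2.2.2, SAMtools and bedtools appear in the submitters' processing notes. Values rise in steps of 0.5 fragment (100% within 0.05 of a step), a fragment enters 6 windows, and fragment numbers were recovered from this. Bins without a value (9.71% in the resistant promoters) and the partial last line of 3 tables were left out. Depth per table was 3270000 to 10500000 fragments.

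Ratios are log2 after 0.1 rpm was added. Tables pool replicates, so no test was run; Clopper-Pearson and exact conditional 95% intervals cover counting error. Members and gene lists were chosen with earlier results of these data known. Named genes are the extremes at 40 and 20 min, the promoters at the limit, and up to 3 members per list with most untreated light signal; those with the largest changes were added after their values were seen. A withheld item that this rule selects is not reported here. Sequence and annotation came from GRCh37 and GENCODE. Intervals and ratios were tested on simulated fragments. Python 3.11.15, numpy 2.4.6, pandas 2.3.3, scipy 1.17.1 and matplotlib 3.10.9 were used. Alternatives covered the added signal, filters, limits, bins, centring and overlaps.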

Additional observations from a re-analysis of the deposited data

How the results depend on the processing

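No paired analysis was possible because each deposited table pools both samples of a group, and for the same reason no sample could be left out. Of 89 values under alternatives, 40 stayed within the 95% interval of the value reported over promoters and 49 did not. The percentages among them cannot change sign. No median changed sign, but each alternative chose its members by a negative ratio, so this was largely set by the choice. Medians ranged from -0.79 to -0.35 in untreated cells, -0.76 to -0.50 at 20 min and -0.79 to -0.45 at 40 min. Removing the limits on depletion, setting bins without a value to 0, keeping 1 promoter per gene symbol and counting overlapping promoters once each kept all values within their intervals.

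Where values are listed below, medians come first and the percent below -0.5 second. Adding 0.5 rpm gave -0.56, -0.53 and -0.51 and 62.3%, 59.6% and 52.7% in untreated cells and after 20 and 40 min; adding 0.01 rpm moved the 40 min median to -0.58. Centring each time point moved untreated cells to -0.70 and 78.5% (78.45 before rounding) and 40 min to -0.58 and 63.7%. A signal filter of 1 rpm gave -0.57 and 60.0% (60.04 before rounding) in untreated cells and -0.53 and 55.4% at 40 min, and no filter gave -0.64 and 68.9%, and -0.58 and 63.4%. Without the bins from -200 to +190 bp untreated cells gave -0.57 and 59.4%, 20 min 63.3%, and 40 min -0.54 and 55.7%.

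A limit of -0.75 at 60 min gave -0.79, -0.76 and -0.72 and 91.6%, 86.9% and 84.9% over the time points in the same order, and a limit of -0.3 gave -0.49, -0.50 and -0.46 and 47.5%, 48.9% and 44.6%. Ratios of summed values were -0.65 in untreated cells and -0.61 at 40 min. Promoters chosen at 40 min and read out at 60 min gave -0.79 and 87.7%. After the data were examined, members were also read out by base composition: the lower 5 GC deciles gave -0.35 and 24.9% in untreated cells, 60.5% at 20 min, and -0.45 and 38.6% at 40 min, and the upper 5 gave -0.65 and 72.4%, and -0.60 and 65.4%. In untreated cells and at 40 min the share in the lower deciles was thus more than 1.5 times below the pooled share, beside 1.92% and 3.92% of all eligible promoters of those deciles, in the same order. At 20 min only 210 promoters of 3 chromosomes were covered.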
